A study of Mus musculus with 6 samples.

Results

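Nos2, the gene of inducible nitric oxide synthase, and the enzyme genes of arginine and polyamine metabolism were examined in mouse CD8+ T cells of the Tc1 and Tc17 type. The genes looked for were Nos2, Arg1, Arg2, Ass1, Asl, Odc1, Srm and Sms. A gene counted as measured when a probe set carried its symbol and no other, and probe sets were chosen by their mean log2 level over all 6 arrays, the highest standing for the gene. The difference between the conditions took no part in that choice, and each measured gene had a single probe set to choose from. Of the 8 genes, 7 were found among 22180 genes with a probe set of 1 symbol. Sms, which encodes spermine synthase, had no probe set of its symbol alone and was not analysed here.

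Naive CD8+ T cells sorted from spleen were stimulated for 4 days with antibodies against CD3 (1 µg/ml) and CD28 (3 µg/ml). Tc1 cultures received IL-12 for 3 days, Tc17 cultures received IL-6 and TGFb for the same time, and both then had 1 day with IL-2. Each condition had 2 biological samples and a technical array numbered 2. The labels do not say which sample that array repeats. It was read as a repeat of biological sample 2 and averaged with it, so n = 2 against 2. The labels used here give no strain, age or genotype, and no statement that the samples came from separate mice, so p-values measure the spread between these samples, which may be technical. The cultures are bulk RNA, in which more cells expressing a gene and more RNA per cell cannot be told apart.

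Inducible nitric oxide synthase uses arginine to make nitric oxide and citrulline, and it is best known as an inflammatory gene of macrophages that lymphocytes can also express. The arginases draw on the same arginine and turn it into ornithine and urea, while argininosuccinate synthase and lyase rebuild arginine from citrulline. Ornithine decarboxylase makes putrescine from ornithine, and the spermidine and spermine synthases extend it to the longer polyamines that growing T cells need.

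Nos2 was the only gene of the 7 that passed the test, and it rose 9.32-fold in Tc17. Arg1, the cytosolic arginase gene, was 1.55-fold higher and Odc1, the ornithine decarboxylase gene, 1.26-fold lower in Tc17, each with arrays that did not overlap between conditions and neither past the threshold. The arginine-rebuilding genes Ass1 and Asl, the mitochondrial arginase gene Arg2 and the spermidine synthase gene Srm had differences of 0.20 or less on the log2 scale. The test was limma's moderated test over all 41345 probe sets with Benjamini-Hochberg adjustment and a threshold of 0.05, which 1.58% of all genes passed (0.992% of all genes as higher and 0.591% as lower in Tc17).

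**Figure D1:**
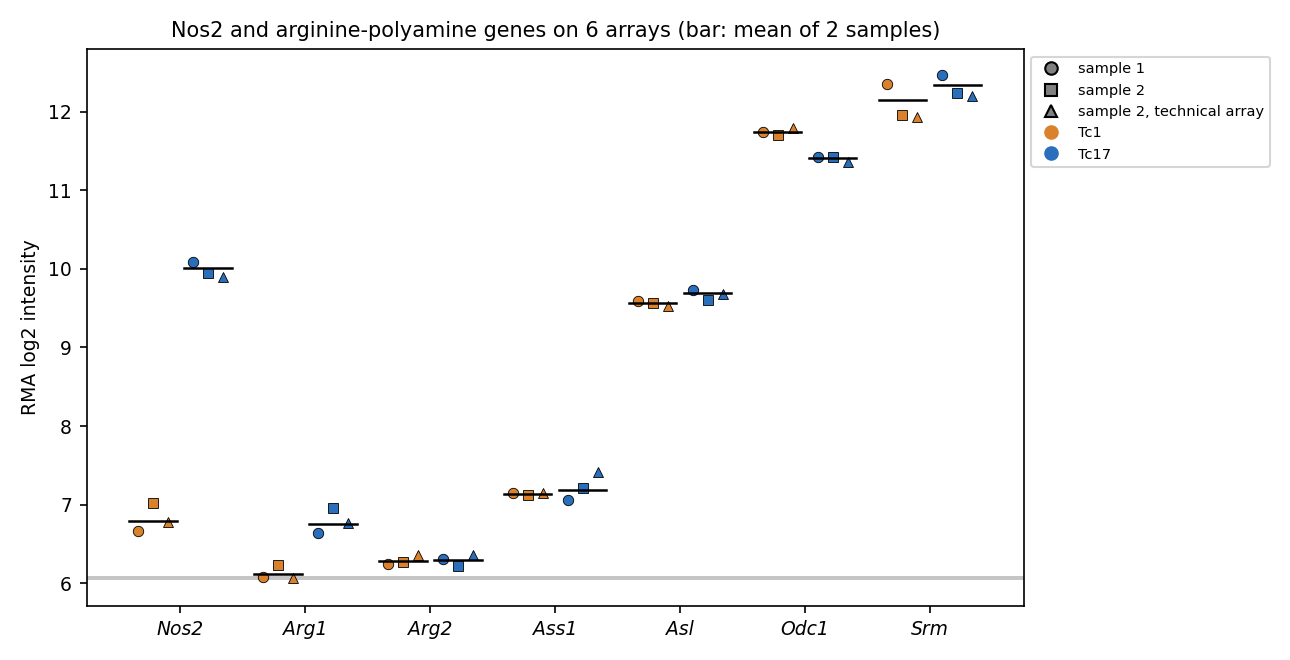
RMA log2 intensity (vertical axis) of the 7 measured genes (horizontal axis) on every array, with Tc1 in orange and Tc17 in blue. Circles are sample 1, squares sample 2, triangles its technical array, black bars the mean of 2 samples, and the grey band the range of the array medians; Nos2 lies near 7 or below in Tc1 and near 10 in Tc17, and the other genes differ far less.

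Nos2 (probe set 17253707) had an RMA log2 intensity of 6.67 in Tc1 sample 1, 7.02 in Tc1 sample 2 and 6.78 on the technical array of sample 2. In Tc17 it measured 10.08 in sample 1, 9.95 in sample 2 and 9.90 on the technical array. All Tc17 arrays were high and all Tc1 arrays low, and the lowest Tc17 array stood 2.88 log2 units above the highest Tc1 array. With the technical array averaged in, the samples stood at 6.67 and 6.90 in Tc1 (6.78 ± 0.16, log2, SD, n = 2) and at 10.08 and 9.93 in Tc17 (SD 0.11, n = 2). Tc17 was higher by 3.22 ± 0.12 on the log2 scale (SE), with a limma adjusted p of 0.00481. The 95% interval of the difference ran from 2.91 to 3.53, which is 7.54-fold to 11.5-fold. Of the 22180 genes, 22 had a larger rise in log2 intensity and 37 a larger difference in either direction.

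The Nos2 call held with each biological sample left out in turn. The log2 difference then lay between 3.10 and 3.34 and the limma adjusted p between 0.0281 and 0.0366. Within Tc1, Nos2 differed by 0.35 between the arrays of samples 1 and 2 and by −0.24 between the array of sample 2 and its technical array. The Tc1 mean stood above the array medians, which lay between 6.04 and 6.09. No array gave a detection call, so a Tc1 signal above background is not shown and the fold is one of array intensities.

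Arg1 competes with Nos2 for arginine. Its probe set 17239845 measured 6.07 in Tc1 sample 1, 6.24 in Tc1 sample 2 and 6.07 on the technical array. In Tc17 the values were 6.64, 6.96 and 6.77 in the same order. The Tc17 arrays were all higher, with a gap of 0.40 between the groups, but both groups were dim and the Tc1 values lay close to the array medians. The means were 6.11 ± 0.06 in Tc1 and 6.75 ± 0.16 in Tc17 (log2, SD, n = 2), a difference of 0.64 ± 0.11 (SE) that did not pass (limma adjusted p = 0.102). Its 95% interval, 0.36 to 0.91 before any adjustment, lay above 0 and wholly below that of Nos2. Arg1 passed in 4 of the 10 alternative analyses that kept every sample and gave it a value. Among the 4 were those with the 6 arrays as separate samples or the biological sample as a random block. Both count the technical array as a further observation.

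Arg2, the mitochondrial arginase gene, showed no separation. It measured 6.24, 6.26 and 6.36 on the Tc1 arrays of sample 1, sample 2 and the technical repeat, and 6.31, 6.22 and 6.36 on those of Tc17. The groups overlapped, and the difference was 0.02 (95% interval −0.17 to 0.22, limma adjusted p = 0.936). A difference of Arg2 larger than 0.22 in either direction lies outside that interval, for a probe set near the array medians.

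Ass1, which encodes argininosuccinate synthase, was at 7.15, 7.12 and 7.14 in Tc1 and at 7.06, 7.22 and 7.42 in Tc17, again for sample 1, sample 2 and its technical array. The Tc1 arrays were nearly equal, and the Tc17 arrays lay on both sides of them. The technical array of Tc17 was the highest of the 6, 0.20 above the array of sample 2, which it was read to repeat. The log2 difference of 0.05 had a 95% interval of −0.24 to 0.34 (limma adjusted p = 0.900).

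Asl encodes argininosuccinate lyase, the next step after Ass1. It measured 9.59, 9.57 and 9.53 in Tc1 and 9.73, 9.60 and 9.68 in Tc17. The groups did not overlap, but the gap between the nearest arrays was 0.02 log2 units. The difference of 0.12 (95% interval −0.08 to 0.32) did not pass the test (limma adjusted p = 0.613).

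Odc1 encodes ornithine decarboxylase, the entry enzyme of polyamine synthesis and a classic target of the transcription factor Myc. Its probe set 17274294 measured 11.74, 11.70 and 11.79 in Tc1 and 11.42, 11.43 and 11.35 in Tc17, in the same order of arrays. Every Tc17 array lay below every Tc1 array, with a gap of 0.28, and the biological samples within a condition were close together. The means were 11.75 ± 0.0013 in Tc1 and 11.41 ± 0.02 in Tc17 (log2, SD, n = 2). The difference of −0.34 ± 0.07 (SE; 95% interval −0.53 to −0.15) did not pass after adjustment (limma adjusted p = 0.161), and it kept its sign in all 15 alternative analyses, from −0.36 to −0.30.

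Srm encodes spermidine synthase, and its values separated by sample number more than by condition. It measured 12.35 in Tc1 sample 1 against 11.95 and 11.93 on the arrays of Tc1 sample 2. In Tc17 it measured 12.47 in sample 1 against 12.23 and 12.20. Sample 1 was the higher in both conditions, and the Tc1 and Tc17 arrays overlapped. The difference was 0.20 (95% interval −0.26 to 0.66, limma adjusted p = 0.725), and it was −0.010 without Tc1 sample 2.

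**Figure D2:**
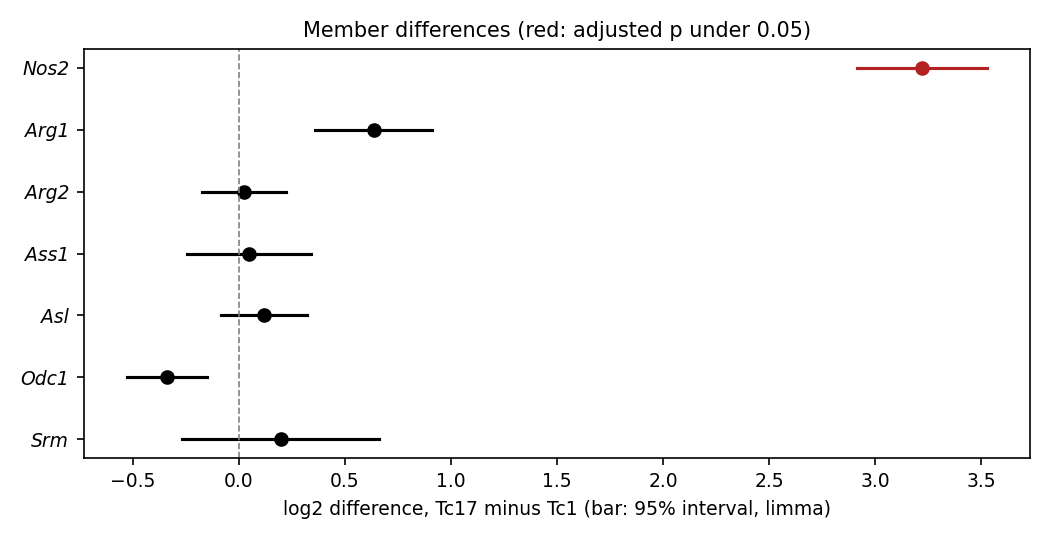
Log2 difference, Tc17 minus Tc1 (horizontal axis), of the 7 genes, with points for the limma estimate and bars for its unadjusted 95% interval. Nos2 (red) is the gene past an adjusted p of 0.05; the intervals of Arg1 and Odc1 leave out 0 on opposite sides, and those of Arg2, Ass1, Asl and Srm include it.

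Across the 7 genes, 6 differences were above 0, against 10154 of 22180 over all genes. Their median was 0.12, beside a median of −0.01 over all genes. The signs of Arg2, Ass1 and Srm turned in some alternative analyses, and the 7 genes were chosen with earlier results of these arrays known. The 3 arrays of one condition lay entirely on one side of the other's for 4 of the 7, Nos2, Arg1, Asl and Odc1. Over all genes this separation was seen in 29.7%, so for Arg1, Asl and Odc1 it is a common pattern in these arrays.

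The reactions around these enzymes were described through 8 further lists with 86 measured genes. Of these 86, 1 rose, 2 fell and 83 did not pass, where 1.58% of all genes passed in either direction. Their median log2 difference was −0.03. The lists were drawn up with earlier results of these arrays known, so their calls are not independent evidence.

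Among 14 genes of arginine supply (cationic amino acid transporters, urea cycle and related genes), Cpd rose and the other 13 did not pass. Cpd encodes carboxypeptidase D, which trims C-terminal arginine and lysine from peptides and can thereby release arginine for nitric oxide synthesis. It measured 6.96, 6.72 and 6.71 in Tc1 and 12.10, 12.01 and 12.06 in Tc17, a difference of 5.23 ± 0.11 (SE, limma adjusted p = 0.0018). The list's median was −0.04. Slc7a2, a cationic amino acid transporter gene, had a difference of 0.78 (limma adjusted p = 0.276), with its Tc1 mean of 5.61 below every array median. Slc25a15, the mitochondrial ornithine carrier gene, had a difference of 0.37 (limma adjusted p = 0.225, past the threshold in 2 of 15 alternatives).

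Nos2 was the only nitric oxide synthase gene with a call. Nos1 and Nos3, the neuronal and endothelial synthase genes, had differences of 0.01 and −0.02 (limma adjusted p = 0.976 and 0.951). They were among 13 measured genes of the other synthases, their tetrahydrobiopterin cofactor and their inhibitors, none of which passed (median −0.06). Gch1, the gene of the first enzyme of that cofactor's synthesis, measured 6.43 in Tc1 and 6.54 in Tc17 and had a difference of 0.10 (limma adjusted p = 0.738). Spr, another gene of that synthesis, had the highest difference of the list, 0.46 (limma adjusted p = 0.340), with every Tc17 array above every Tc1 array. Ddah2, whose product is assigned to the breakdown of methylarginine inhibitors, had the lowest difference, −0.82 (limma adjusted p = 0.186, past the threshold in 4 of 15 alternatives). Pts, the gene of the second enzyme of cofactor synthesis, had a difference of −0.58 (limma adjusted p = 0.155, past it in 3).

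Polyamine genes beyond Odc1 and Srm gave no calls in the same fit. None of 10 genes of polyamine synthesis control and S-adenosylmethionine supply passed (median −0.04). There Ahcy, which clears S-adenosylhomocysteine, had a difference of −0.39 (limma adjusted p = 0.244) and Oaz1, the gene of the antizyme that inhibits ornithine decarboxylase, −0.35 (limma adjusted p = 0.534). None of 13 genes of polyamine breakdown and transport passed (median −0.06). Gpc1, a glypican gene linked to polyamine uptake, had a difference of −0.56 (limma adjusted p = 0.141, past the threshold in 4 of 15 alternatives) and Sat1, the spermidine acetyltransferase gene, 0.30 (limma adjusted p = 0.256). None of the 4 hypusine genes, which use spermidine to modify the translation factor eIF5A, passed (median −0.01). Eif5a2 and Dhps, the deoxyhypusine synthase gene, had differences of 0.46 and −0.16 (limma adjusted p = 0.256 and 0.714).

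The other branches from arginine and ornithine had no calls either in this fit. Gatm, which encodes the enzyme that takes arginine into creatine synthesis, measured 10.83, 10.29 and 10.38 in Tc1 and 11.72, 11.46 and 11.46 in Tc17. All Tc17 arrays were higher, and Tc17 was higher by 1.01, which missed the threshold (limma adjusted p = 0.142) and passed it in 4 of 15 alternative analyses. The list's other 8 measured genes lay between −0.15 and 0.26, with Slc6a8, the creatine transporter gene, at 0.26 (limma adjusted p = 0.556). None of 7 protein arginine methyltransferase genes passed, and their differences lay between −0.11 and 0.18. Prmt3 and Prmt7 had differences of 0.18 and 0.11 (limma adjusted p = 0.599 and 0.781).

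Of 16 measured genes known as regulators of Nos2 or Odc1, 2 fell in Tc17 and none rose (median −0.02). Irf1 encodes an interferon-responsive factor that activates Nos2 in macrophages. It measured 9.52, 9.66 and 9.70 in Tc1 and 8.33, 8.46 and 8.58 in Tc17, a difference of −1.17 ± 0.11 (SE, limma adjusted p = 0.0296), the opposite direction to Nos2. Mycn, a Myc family gene, measured 8.62, 8.26 and 8.24 in Tc1 and 6.54, 6.75 and 6.82 in Tc17. Its difference was −1.77 ± 0.16 (SE, limma adjusted p = 0.0285). Irf1 and Mycn passed in all 11 alternatives that kept every sample, which rest on the same arrays. Both calls ended in each of the 4 fits that left out a biological sample, with 1 sample left in a group. The log2 difference then ran from −1.27 to −1.07 for Irf1 and from −1.96 to −1.59 for Mycn. Stat3, the gene of a transcription factor of IL-6 signalling, had a difference of 0.50 (limma adjusted p = 0.0802, past the threshold in 7 of 15 alternatives). Mxd1, a Myc antagonist gene, had a difference of −0.48 (limma adjusted p = 0.208, past it in 3).

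**Figure D3:**
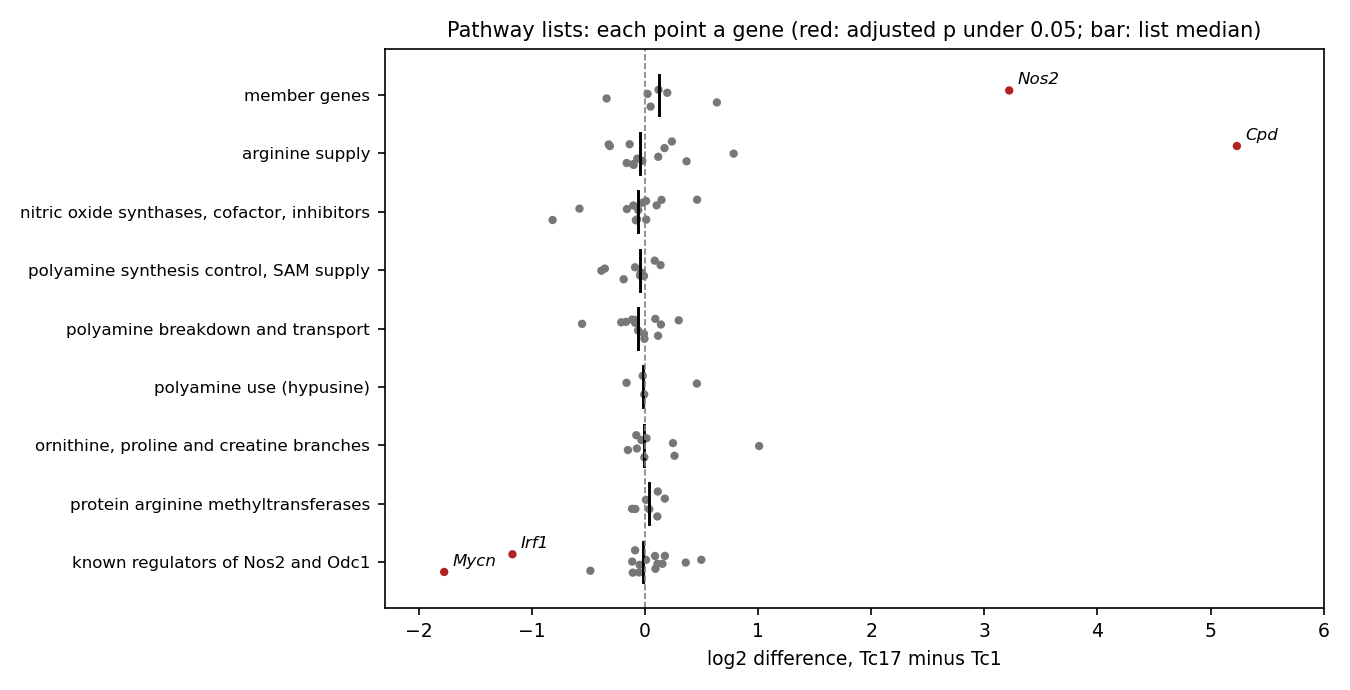
Log2 difference, Tc17 minus Tc1 (horizontal axis), of every measured gene in the 7 examined genes and 8 further lists (vertical axis); each point is a gene, red where the limma adjusted p is under 0.05, and black bars are list medians. Nos2 and Cpd stand far to the right, Mycn and Irf1 to the left, and every list median lies close to 0.

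The 5 genes nearest to Nos2 in profile were found by the root mean square distance between log2 values over the 6 arrays, each gene centred on its own mean, among 22179 other genes. They were Susd2 (distance 0.12), a sushi-domain membrane protein gene, Ebf1 (0.12), a transcription factor gene known from B cells, and Aff3 (0.15), a nuclear protein gene. Cd86 (0.16), the gene of a B7 ligand of CD28, and Crispld2 (0.19), a secreted protein gene, followed. Their log2 differences lay between 2.96 for Cd86 and 3.49 for Aff3, beside 3.22 for Nos2. This nearness follows from a difference of like size and small spread, over arrays of only 2 samples per condition. Ebf1 had a Tc1 mean of 5.81, below every array median.

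**Figure D4:**
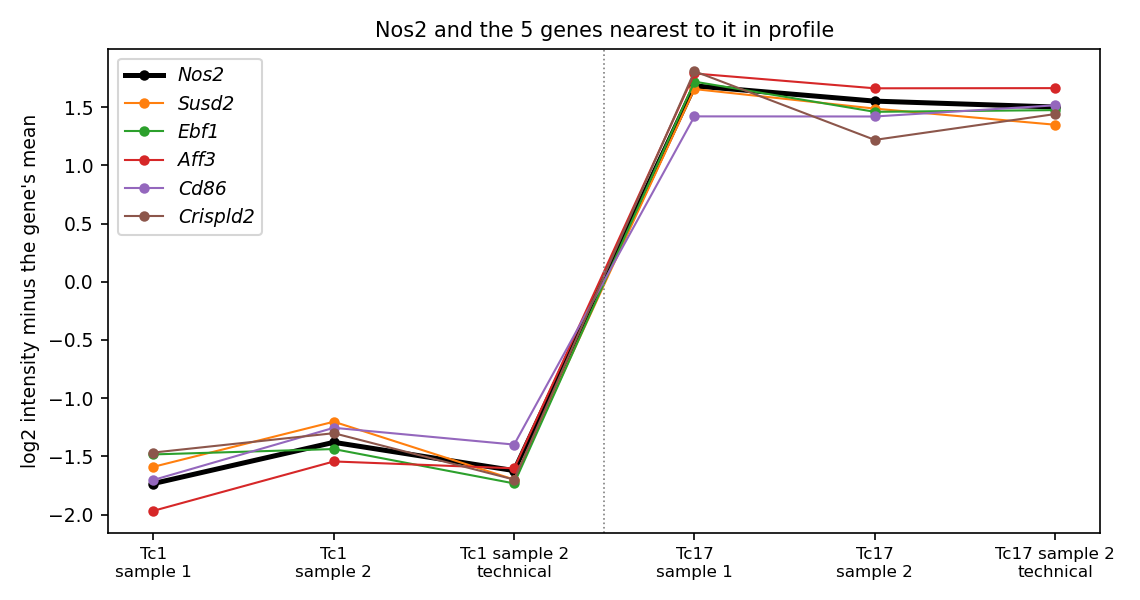
Log2 intensity minus the gene's own mean (vertical axis) on the 6 arrays (horizontal axis) for Nos2 (thick black line) and the 5 genes nearest to it. All 6 lines are low on the 3 Tc1 arrays and high on the 3 Tc17 arrays, which is how the genes were picked.

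Because Nos2 and Arg1 are also macrophage genes, markers of other cells were read on the same arrays. The CD8 T cell label was met by Cd8a (12.91 in Tc1 and 12.78 in Tc17), Cd8b1 (12.84 and 12.81) and Cd3e (12.92 and 13.05). Of 17 macrophage and monocyte markers 1, the lysozyme gene Lyz2, rose and 16 did not pass, where 1.58% of all genes passed. Lyz2 rose from 5.44 ± 0.0042 to 8.97 ± 0.30 (log2, SD, n = 2, limma adjusted p = 0.00594). Its Tc1 arrays measured 5.44 in sample 1, 5.21 in sample 2 and 5.68 on the technical array. The small Tc1 SD therefore leaves out a difference of 0.47 between the 2 arrays that were averaged. The Lyz2 call ended without Tc1 sample 2 (limma adjusted p = 0.055). The mean log2 level of the 17 markers ran from 5.83 to 5.93 on the Tc1 arrays and from 6.18 to 6.31 on the Tc17 arrays. For the 16 without Lyz2 it ran from 5.86 to 5.95 and from 6.02 to 6.13. Adgre1, the gene of a classic surface antigen of macrophages, measured 4.85 in Tc1 and 5.23 in Tc17, Fcgr1 5.08 and 5.10, and Csf1r, the receptor for macrophage colony-stimulating factor, 6.28 and 6.56. The scavenger receptor gene Msr1 had the largest difference after Lyz2, 0.82 (4.69 and 5.52, limma adjusted p = 0.163), and C1qb, a complement gene, followed with 0.52 (6.15 and 6.67, limma adjusted p = 0.317), beside 0.64 for Arg1. In 7 of the 17 markers, Lyz2, Msr1, C1qb, Adgre1, Csf1r, Cd14 and Mrc1, every Tc17 array lay above every Tc1 array, against 15.2% of all genes. Of the 17 differences 15 were above 0, against 10154 of 22180 over all genes, and 9 of the 17 markers lay below every array median in both conditions. The differences below 0 were those of Cd68 (−0.14) and Cd163 (−0.04). Cd68, the brightest of the 17, measured 9.99 in Tc1 and 9.85 in Tc17, with overlapping arrays. The part of other cells in the Nos2 and Arg1 values was not tested.

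**Figure D5:**
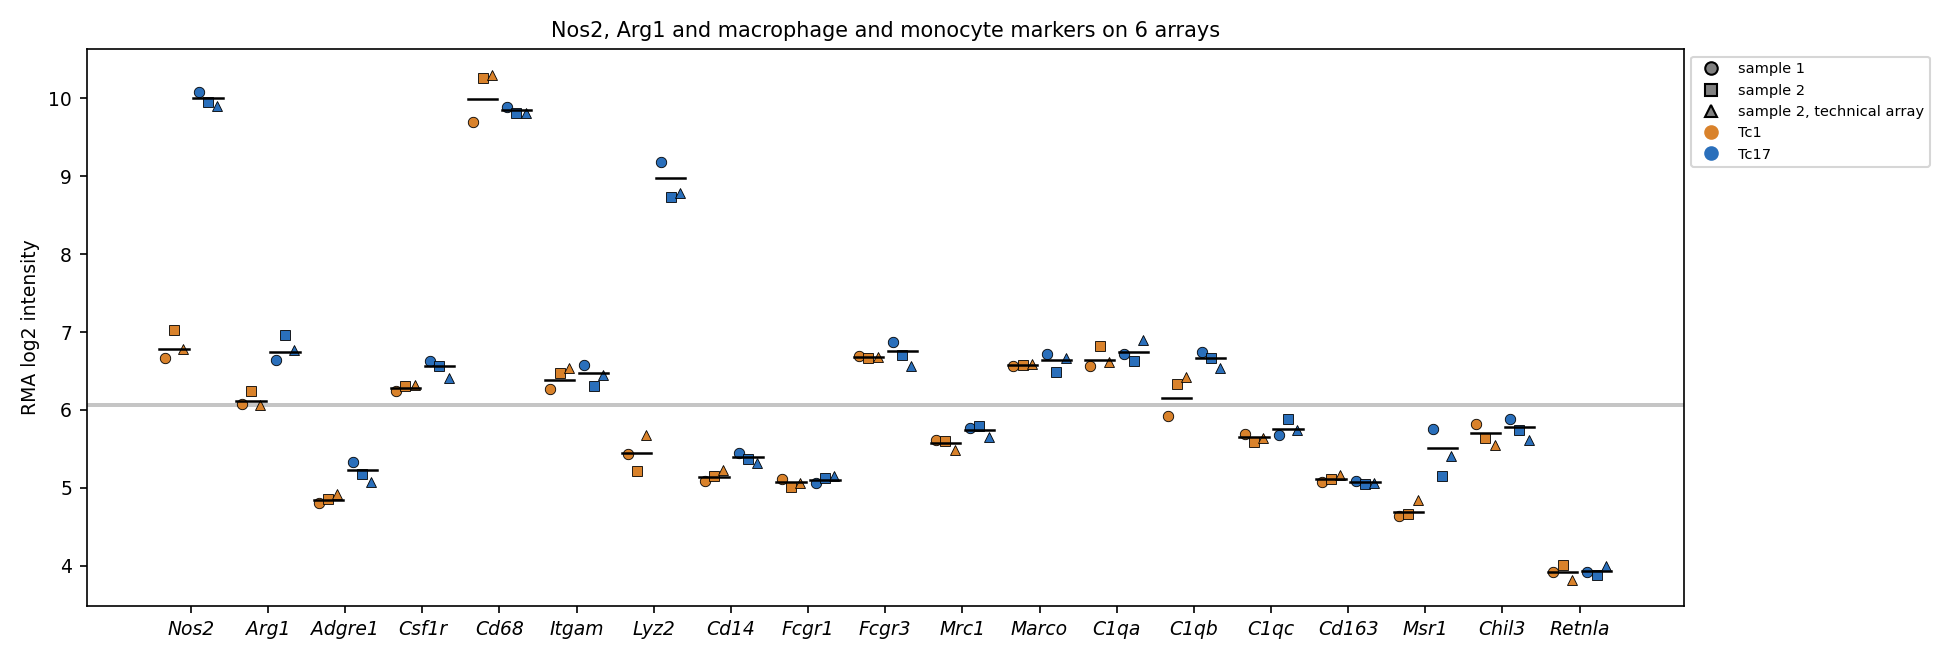
RMA log2 intensity (vertical axis) of Nos2, Arg1 and 17 macrophage and monocyte markers (horizontal axis) on every array, in the colours and symbols of the plot of the 7 genes, with the grey band for the array medians. Lyz2 is far higher in Tc17, as Nos2 is; Msr1, Adgre1, Cd14 and Mrc1 lie below the band in both conditions with every Tc17 array above every Tc1 array, and Fcgr1 and Cd163 lie below it with overlapping arrays.

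Over all genes, 1.58% passed in either direction. Among the other marker lists, Ly6g rose (7.07 to 9.60, limma adjusted p = 0.0114) and Cxcr2 fell (10.36 to 7.62, limma adjusted p = 0.0382) of 9 neutrophil markers. The calls of both ended without either Tc1 sample (limma adjusted p of 0.0767 and 0.0856 for Ly6g, and 0.171 and 0.163 for Cxcr2), and the Cxcr2 call also without the technical arrays (0.0538). The other 7, S100a8 and Mpo among them, lay below every array median in both conditions. None of 6 dendritic cell, 4 B cell, 2 NK cell and 3 CD4 T cell markers passed.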

How the data were processed

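The authors deposited log2 intensities per probe set; the submitters' processing notes name RMA and Partek without versions or roles. RMA corrects background, normalizes arrays by quantiles and summarizes probes, so probe-level background could not be redone. No coordinates are printed, because the genome build is not given in the sources used here.

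The platform annotation gave 1 symbol to 23521 probe sets. Technical arrays were averaged with biological sample 2 of their condition. Tc17 was compared with Tc1 by limma 3.58.1 in R 4.3.3 (lmFit, eBayes; 2 residual degrees of freedom plus 2.63 from moderation), with Benjamini-Hochberg adjustment over 41345 probe sets and no filter. In this fit 418 probe sets passed an adjusted p of 0.05. The number of arrays limits precision. The procedure was tested on simulated data.

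The members and lists were chosen with earlier results of these data known. Named genes were all members, up to 6 called and 2 uncalled genes of each list, called markers and the 5 profiles nearest to Nos2. Nos1, Nos3, Gch1, Spr and the uncalled markers were picked after their values were seen. Alternatives covered how the technical array is read, a replicate block, quantile normalization, median centring, 2 level filters, trend and robust eBayes, averaging the probe sets of a gene and leaving out each sample. Readings with the 6 arrays as separate samples, or with the biological sample as a random block, count the technical array as a further observation. Figures used matplotlib 3.10.9 and pandas 2.3.3.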

Additional observations from a re-analysis of the deposited data

How the results depend on the processing

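Nos2 passed in all 11 alternatives that left no sample out, and its log2 difference ran from 3.10 to 3.34 over all 15. These are not independent supports, since all rest on the same arrays. The upper-quartile filter kept Nos2 only through its Tc17 arrays, as its Tc1 arrays lay below the cutoff of 8.16. Fits on 6 separate arrays, or with the biological sample as a random block, count the technical array as a further observation. The count of members called was 3 (Nos2, Arg1 and Odc1) with the 6 arrays as separate samples or with the biological sample as a random block, and 2 (Nos2 and Arg1) with the replicate number as a block or when probe sets of a gene were averaged, a fit adjusted over 22180 genes. Same-numbered samples share only a number in the labels, and their deviations correlated at 0.31 over probe sets. Over all probe sets, 418 passed, against 1581 with the technical array averaged with sample 1, 2318 with separate arrays, 2074 with the random block, 1535 with the replicate block, 648 above the median level, and 48 to 125 leaving out each sample. Of the 86 other pathway genes 3 passed, against 8 with the technical array averaged with sample 1, 10 with separate arrays or the random block, 8 with the replicate block and 1 leaving out any sample. Of the uncalled genes named, Gatm, Ddah2, Gpc1 and Stat3 passed with the replicate block (limma adjusted p = 0.0122, 0.0157, 0.043 and 0.0484), with the technical array averaged with sample 1, with separate arrays and with the random block, and Pts in all of these but the second (0.041 with the replicate block). Mxd1 passed in all of these but the replicate block, and Slc25a15 with separate arrays and with the random block. The sign turned for 4 uncalled genes. Leaving out each sample, Arg2 ran from −0.013 (without Tc1 sample 1) to 0.060, Ass1 from −0.079 (without Tc17 sample 2) to 0.18, Srm from −0.010 to 0.41 and Prmt7 from −0.021 to 0.25 (both lowest without Tc1 sample 2), and Arg2 was −0.0069 with the technical array averaged with sample 1. Other uncalled differences that moved by over 1.5 times leaving out each sample were Oaz1 (−0.61 to −0.10), Slc7a2 (0.45 to 1.12), Slc6a8 (0.073 to 0.45), Prmt3 (0.060 to 0.29), Dhps (−0.30 to −0.022) and Asl (0.078 to 0.16), with probe sets of a gene averaged Gpc1 (−0.28), and Ahcy with the technical array left out (−0.24) or averaged with sample 1 (−0.23). The cause was not tested. The upper-quartile filter removed Arg1, Arg2 and Ass1, whose dim signal limits what can be read from them. A slide or scan date block was not run, since none is given in the labels or value table.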

Other observations

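Srm was not alone in differing by sample number. In 37 of the 93 measured members and pathway genes (39.8%) sample 1 lay above both arrays of sample 2 in Tc1 and again in Tc17, a pattern found in 18.1% of all 22180 genes. The reverse was found in 15 of the 93 (16.1%) and in 19.8% of all genes. Among the 37 was Myc, which in Tc1 measured 11.92 in sample 1 and 11.24 and 11.14 in sample 2, and in Tc17 11.88 and then 11.38 and 11.43. Its difference between the conditions was 0.09 (limma adjusted p = 0.937). The arginine transporter gene Slc7a1 measured 11.06 against 10.87 and 10.79 in Tc1, and 11.03 against 10.62 and 10.83 in Tc17. This pattern and these genes were picked after their values were seen, and what the sample numbers share was not given in the sources used here.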
